A study of Homo sapiens with 6 samples.

Results

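The zinc finger genes of human chromosome 19 were examined in RNA-seq libraries of MDA-MB-435 cells with reduced ZCCHC24. Members were all rows of the deposited table whose symbol is ZNF, a number and at most 1 letter and whose locus lies on chromosome 19, with the highest row kept where a symbol was repeated. This gave 261 of the 57150 genes in the table, and the same name pattern gave 292 genes on other chromosomes for comparison. The name pattern also admits a few pseudogenes whose symbol ends in P.

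Most ZNF genes of chromosome 19 stand in tandem arrays that arose by repeated duplication. Their proteins bind DNA through rows of C2H2 zinc fingers, and many begin with a KRAB domain, which binds TRIM28 (KAP1). TRIM28 in turn brings SETDB1, a histone H3 lysine 9 methyltransferase, and HP1 proteins, and this machinery is best known for silencing transposable elements. The ZNF genes themselves carry the same histone mark over their finger exons, and ZNF274 is one of the proteins that bring SETDB1 there.

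MDA-MB-435 is an established human cancer line that the labels give as breast, and later genotyping placed it with melanoma. There were 3 control libraries (ZCCHC24 CTRL) and 3 knockdown libraries (ZCCHC24 KD). No source used here gives the way in which ZCCHC24, a CCHC-type zinc finger protein, was knocked down. Whether the libraries of a group are separate cultures is not stated, and the p-values cover only the variation among them, which may be technical. The melanocyte markers PMEL, TYRP1, MLANA, MITF, SOX10, TYR and DCT summed to between 1824 and 1932 FPKM in the controls and between 1297 and 1361 FPKM after knockdown. DCT was the largest part, with means of 846 and 691 FPKM. The markers did not move alike: PMEL went from 89.5 to 19.5 FPKM and TYRP1 from 196 to 58.6, while TYR stood at 204 and 207. The 8 breast epithelial markers summed to between 98.1 and 115 FPKM and between 140 and 149 FPKM, nearly all of it KRT8 and KRT18, with KRT5 listed at 0 and ESR1 and GATA3 below 1 FPKM in all libraries. The part of these marker shifts in the results that follow was not tested. FPKM count fragments relative to transcript length and library size, so levels can be compared between genes. ZCCHC24 stood at 12.7, 12.3 and 13.2 FPKM in the controls and at 1.54, 1.69 and 1.81 FPKM after knockdown, 13.2% of the control level. The exact two-sided permutation p was 0.1, the smallest that 3 against 3 libraries allow. Total counts were not part of the table, so absolute depth is unknown. The most frequent ratio of each library to control 1 was taken among genes with very low values in both. It put the FPKM worth of 1 fragment at between 0.912 and 1.15 times that of control 1.

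Before the values, 3 promoters are shown because they hold the sequence that was commonest, among the motifs searched, in front of these genes. The motif, known as the SBS sequence bound by ZNF143 and printed in capitals below with its free bases 7 and 8 included, was found on either strand in 32 of the 216 chromosome 19 members with a promoter in RefSeq, or 14.8%. It was found in 19 of 212 ZNF promoters on other chromosomes (8.96%) and in 533 of 27195 promoters of all genes (1.96%). Each promoter covers 250 bases before and 50 bases after the transcript start, 5′ to 3′ on the strand of the gene, from GRCh38.p14, with the motif in capitals; in ZNF569 it reads in reverse. ZNF358 is on the plus strand (chr19:7515853-7516152), and ZNF606 (chr19:58002771-58003070) and ZNF569 (chr19:37467395-37467694) are on the minus strand. They are the members holding the motif among the 10 largest rises and the 10 largest falls, and ZNF358 is the one that fell.
ZNF358: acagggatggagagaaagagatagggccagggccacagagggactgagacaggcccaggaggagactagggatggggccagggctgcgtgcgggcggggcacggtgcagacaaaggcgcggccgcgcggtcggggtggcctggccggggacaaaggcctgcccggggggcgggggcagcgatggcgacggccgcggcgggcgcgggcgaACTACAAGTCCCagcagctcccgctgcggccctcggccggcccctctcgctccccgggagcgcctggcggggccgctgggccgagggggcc
ZNF606: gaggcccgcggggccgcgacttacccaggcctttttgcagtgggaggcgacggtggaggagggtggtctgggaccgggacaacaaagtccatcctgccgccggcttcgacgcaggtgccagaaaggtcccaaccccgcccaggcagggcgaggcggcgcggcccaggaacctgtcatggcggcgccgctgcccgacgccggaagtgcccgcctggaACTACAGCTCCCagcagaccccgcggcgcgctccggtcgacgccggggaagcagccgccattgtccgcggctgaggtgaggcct
ZNF569: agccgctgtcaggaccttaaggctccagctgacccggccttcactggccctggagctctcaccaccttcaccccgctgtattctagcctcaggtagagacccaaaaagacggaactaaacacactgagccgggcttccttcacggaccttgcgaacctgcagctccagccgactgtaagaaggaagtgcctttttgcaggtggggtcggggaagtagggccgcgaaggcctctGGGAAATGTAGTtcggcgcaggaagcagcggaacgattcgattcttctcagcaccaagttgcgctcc

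Most of the chromosome 19 ZNF genes that were expressed highly enough to test were higher after knockdown. The test required a 6-library mean of 1 FPKM or more, which 181 members met. ZNF846, ZNF14, ZNF790, ZNF571 and ZNF585B, all called higher, had control means below 1 FPKM and met it only through the knockdown libraries. ZNF556, called lower, and ZNF570, not called, met it only through the controls. Of the 181 members, 108 rose, 23 fell and 50 did not pass a limma adjusted p of 0.05. Rises thus made up 59.7% of the tested members, where 37.0% of all 13343 tested genes rose, and falls made up 12.7%, where 35.4% of all fell. Calls in either direction were common in the whole data set, at 72.4% of tested genes, so the balance of directions, not the share called, set the members off from that background. The median log2 change of the members was 0.37, with quartiles of -0.00 and 0.67, beside a median of 0.01 over all tested genes. No test was made of the members as a set.

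The members were weakly expressed. The median tested member had a mean of 5.17 FPKM, against 15.3 FPKM over all tested genes and 8.17 FPKM for tested ZNF genes on other chromosomes, and 9 members reached 20 FPKM. In each library the median over the 181 tested members was 4.06, 4.12 and 4.12 FPKM in the controls and 6.02, 6.20 and 5.75 FPKM in the knockdown libraries. All knockdown medians lay above all control medians. The summed FPKM of the members went from 1032 ± 18.8 (SD, n = 3) to 1390 ± 25.95 (SD, n = 3), while the sum over all tested genes was lower after knockdown in every library. For tested ZNF genes on other chromosomes the sum also rose, from 2484 ± 45.8 to 2787 ± 49.7 (SD, n = 3). The mean of their library medians went from 7.28 to 8.22 FPKM. Among the 92 members with a mean of at least 5 FPKM, 63 rose (68.5%) and 10 fell (10.9%). Over all genes of that level 39.4% rose and 38.0% fell. Among the 89 members between 1 and 5 FPKM, 45 rose (50.6%) and 13 fell (14.6%), beside 29.2% and 27.2% over all genes of that level. Calls were thus rarer among weak genes in general.

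ZNF genes on other chromosomes had a smaller positive median. Their 207 tested genes gave 97 rises (46.9%), 44 falls (21.3%) and 66 without a call, and the median log2 change was 0.19. The remaining genes of chromosome 19, members left out, gave 250 rises and 267 falls of 730 tested, with a median of -0.02. The difference between both sets of ZNF genes was not tested.

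**Figure D1:**
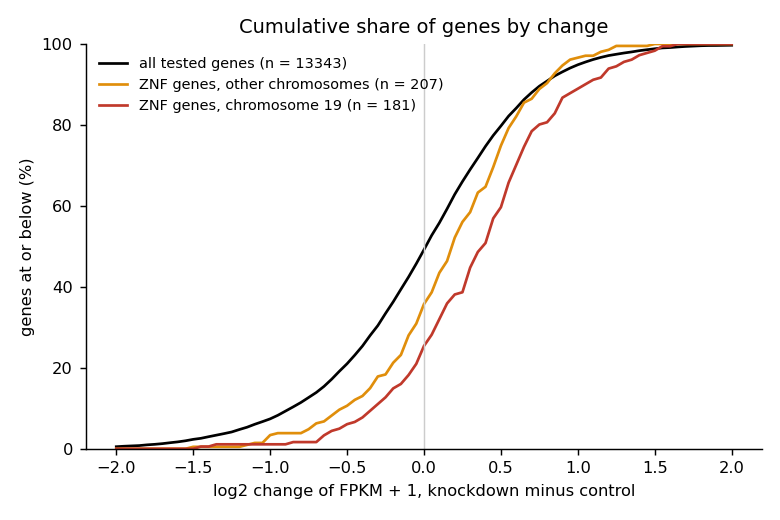
Cumulative percentage of genes (vertical axis) at or below each log2 change of FPKM + 1, knockdown minus control (horizontal axis), for all 13343 tested genes, 207 ZNF genes on other chromosomes and 181 on chromosome 19. The chromosome 19 curve lies farthest to the right over most of the range, with a median of 0.37 beside 0.19 and 0.01.

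The 10 largest rises, ranked by log2 change of FPKM + 1, took their genes to between 2.80 and 4.27 times the control mean. The 10 largest rises and 10 largest falls were picked from called members whose groups did not overlap. ZNF790, a called rise outside these 10, had a larger ratio of 5.91, from a control mean of only 0.358 FPKM. In what follows, single values are FPKM per library in the order of replicates 1 to 3, and changes are log2(FPKM + 1), knockdown minus control, with the standard error of the limma fit and a p adjusted over all tested genes. ZNF44 (ENSG00000197857; hg19 chromosome 19, 12305829 to 12405702), a KRAB protein with 14 finger matches, stood at 3.77, 4.26 and 3.88 in the controls and 13.6, 14.3 and 14.6 after knockdown. The groups were far apart, with a change of 1.61 ± 0.07 and a limma adjusted p of 4.2e-07. ZNF528 (ENSG00000167555; 52901101 to 52921665) stood at 6.26, 7.09 and 8.26 against 21.4, 22.2 and 23.4, a change of 1.51 ± 0.09 (limma adjusted p 2.2e-06). It was the most abundant member of its array in these cells. ZNF569 (ENSG00000196437; 37902056 to 37976260), known as a KRAB-type transcriptional repressor, had the largest ratio of the 10 rises named here, 4.27, with 1.02, 1.59 and 1.07 against 5.49, 5.37 and 4.84. On the log2 scale with a pseudocount of 1 this became 1.49 ± 0.12 (limma adjusted p 1.2e-05), since that scale understates changes of weak genes. Its promoter is among those printed above.

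ZNF493, in the array next to the centromere, stood at 2.76, 2.63 and 1.97 in the controls and 10.3, 8.31 and 7.75 after knockdown (change 1.5 ± 0.13). ZNF585A, known as a KRAB protein, rose from 6.42 ± 0.869 to 18.8 ± 0.790 (SD, n = 3). For ZNF585A, 10.8% of the 100-base windows of its longest transcript are also found in another gene, so part of its reads could be assigned elsewhere. ZNF841 and ZNF432 share 1 listed locus (52534631 to 52599018) and rose by 1.38 and 1.34. ZNF432, for which a role in the DNA damage response has been described, went from 5.37, 5.84 and 6.31 to 16.7, 15.9 and 16.4, with no overlap between the groups. ZNF699, ZNF606 and ZNF836 complete the 10 largest rises, at 3.23, 3.16 and 2.86 times their control mean, ZNF836 with 10.3% of its windows shared. In all, 20 of the 181 rose by at least 1 on the log2 scale, where 4.96% of all tested genes did so, and 7 of 207 ZNF genes on other chromosomes did.

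Falls were fewer, and the 3 largest came from a single array. ZNF724P (ENSG00000196081; 23404400 to 23433192) stood at 4.35, 4.97 and 5.06 in the controls and 1.17, 1.20 and 0.935 after knockdown, a 4.35-fold lower mean (change -1.46 ± 0.10, limma adjusted p 5.6e-06). Its reads are in part hard to assign, since 52.1% of its windows are shared with another gene. ZNF714 (ENSG00000160352; 21264964 to 21308073) shares no such window and stood at 12.02, 11.85 and 13.7 against 3.54, 4.62 and 4.57. All its knockdown values lay below all its controls, with a change of -1.37 ± 0.10 (limma adjusted p 6.9e-06). ZNF93 (ENSG00000184635; 20011721 to 20074273), known for binding and repressing a subset of LINE-1 elements in primate genomes, stood at 9.05, 10.1 and 9.12 against 4.28, 4.85 and 5.06, a 1.99-fold lower mean (-0.86 ± 0.08). ZNF724P and ZNF714 were the only tested members called lower by at least 1 on the log2 scale, where 7.14% of all tested genes were.

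The other 7 of the 10 largest falls were spread over the chromosome and lay between -0.69 and -0.55. They were ZNF114, ZNF358 (17.4% of its windows shared), ZNF526, ZNF766, ZNF530, ZNF562 and ZNF865. ZNF562 went from 17.5 ± 1.41 to 11.3 ± 0.30 (SD, n = 3), whereas its neighbour ZNF561 rose from 18.4 ± 1.07 to 27.5 ± 0.463 and ZNF121, the next gene, from 18.6 ± 0.790 to 35.4 ± 0.786. These 3 genes lie between 9676291 and 9785776 on hg19 chromosome 19. Their groups did not overlap in any of the 3 genes.

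**Figure D2:**
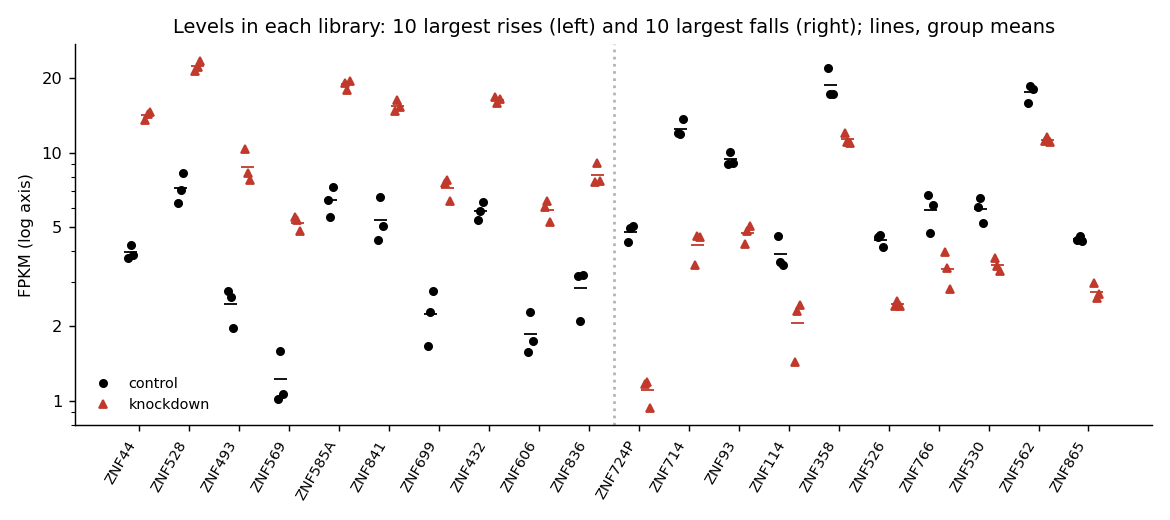
FPKM in each library on a log axis for the members with the 10 largest rises (left of the dotted line) and the 10 largest falls (right). Black circles are the 3 controls, red triangles the 3 knockdown libraries and short lines the group means. The 20 genes were picked from called members whose groups do not overlap, so their separation was set by the choice.

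Members were grouped along the chromosome into runs, a new run starting where consecutive member starts lay over 1 Mb apart on hg19. There were 18 runs, and 9 of them held at least 5 members and together 247 of the 261. The median change was positive in 8 of these 9. The exception was the run nearest the end of the short arm (2819871 to 2944969), where 4 members were tested, with 1 rise, ZNF77, 1 fall, ZNF556, and a median of -0.08. In the smaller runs, with at most 2 tested members each, most medians were negative. Runs 2, 12, 13, 15 and 16, numbered from the short arm, had medians of -0.38, -0.09, -0.37, -0.69 and -0.26. Each of them had 1 fall and no rise. Run 9 had -0.003 without a call, and run 5 had 0.88 with 1 rise, ZNF333. No member of runs 6 and 8 was tested.

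Among the runs of at least 5 members, the shares of rises were highest in 2 runs, where 37.0% of all tested genes rose and 35.4% fell. The run at 8575461 to 9903856 had 9 rises (81.8%) and 1 fall among 11 tested. The run at 36673187 to 38307940 on the long arm had 16 rises (80%) and 1 fall among 20 tested. In the latter the median change was 0.63, and ZNF569, ZNF585A, ZNF790, ZNF568, ZNF461 and ZNF567 rose by at least 1. ZNF790 went from 0.358 ± 0.102 to 2.12 ± 0.583 (SD, n = 3), so it reached the level for a test only through the knockdown libraries. ZNF850 was the fall of this run, from 5.26, 4.72 and 5.68 to 3.78, 2.93 and 3.47. Of 8 tested genes of other names that lie within this run, 7 rose and 0 fell, with a median of 0.73. These 8 include ZFP14, HKR1 and ZFP30, which are C2H2 genes too and rose by 1.42, 0.60 and 0.39, so they are not all unrelated neighbours. ZFP14 went from 1.65 ± 0.363 to 6.05 ± 0.177 (SD, n = 3). The run at 44010870 to 45808541 had 14 rises and no fall among 18 tested, with a smaller median of 0.31. There the other genes went differently, with 2 rises and 9 falls among 22 tested. In runs 7, 17 and 18, numbered from the short arm, other genes rose more often than they fell. Of these, 4 rose and 1 fell of 9 tested in run 7, and 4 rose and 0 fell of 8 in run 17. In run 18, 11 rose and 3 fell of 25, and in run 4, 4 rose and 3 fell of 8. Runs 1, 3 and 10 held no other tested gene.

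The run at 52074550 to 54083523 had 20 rises and 2 falls among 31 tested and a median of 0.50. Rises were 64.5% and falls 6.45% of its tested members, beside 37.0% and 35.4% of all tested genes. Its 7 rises of at least 1 were ZNF615, ZNF614, ZNF432, ZNF841, ZNF836, ZNF880 and ZNF528. ZNF649, ZNF613, ZNF350, ZNF615, ZNF614, ZNF432, ZNF841, ZNF616 and ZNF836 are consecutive tested members and rose by between 0.50 and 1.38. After them came ZNF480, without a call, and ZNF766, which fell, and then ZNF880 and ZNF528, the largest rise of the run. Toward the far end of the run the changes were small, and ZNF765, ZNF761, ZNF813 and ZNF331 had values between -0.10 and 0.27, of which only ZNF761 passed the test. The run at the tip of the long arm (55987349 to 59023780), the largest with 60 members, had 26 rises and 6 falls among 47 tested and a median of 0.32. Its shares were 55.3% and 12.8%, beside 59.7% and 12.7% of all tested members. The run at 11562140 to 12750912 had 12 rises (70.6%) and 2 falls among 17, and the run at 35033366 to 35454953 had 2 rises (40%), ZNF302 and ZNF181, among 5.

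The array beside the centromere (19779604 to 24312654) gave both rises and falls. It holds 41 members, of which 18 were tested, and 7 rose, 5 fell and 6 had no call; their median was 0.07. The rises were ZNF493, ZNF506, ZNF14, ZNF675, ZNF254, ZNF708 and ZNF726, between 0.29 and 1.5. The falls were ZNF724P, ZNF714, ZNF93, ZNF430 and ZNF43, between -1.46 and -0.38. Falls from this array thus made up 21.7% of all 23 falls. They were 27.8% of its tested members, beside 12.7% of all tested members and 35.4% of all tested genes. Falls were not limited to this array, and several of the smaller runs gave 1 each, as listed above. Its members were also mostly silent or weak, with a median of 0.60 FPKM over all 41. ZNF85, which did not reach the level for a test, stood at 0.910, 0.894 and 0.845 in the controls and 0.111, 0.214 and 0.142 after knockdown, 5.67-fold lower in the mean and without overlap between the groups.

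**Figure D3:**
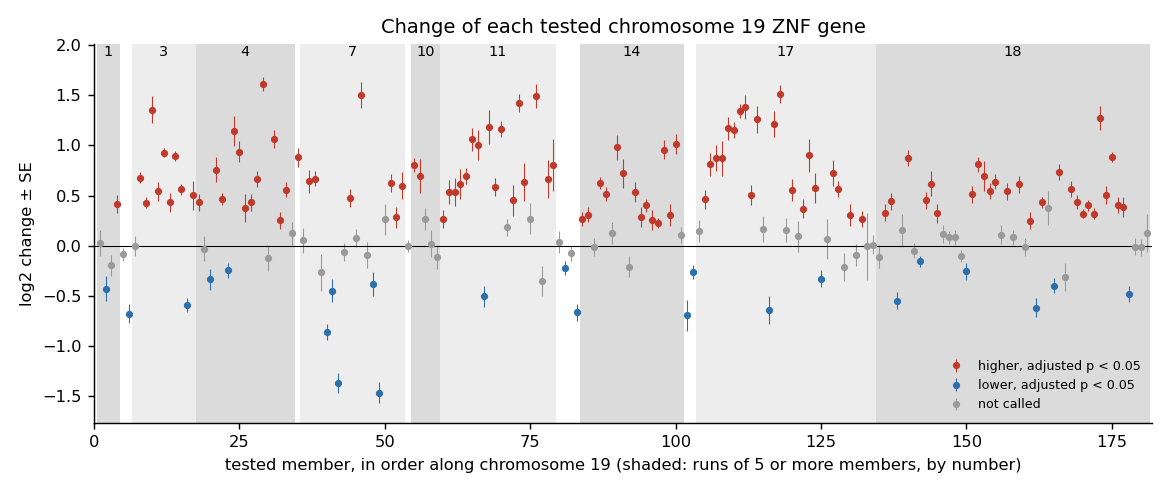
Log2 change of FPKM + 1 with its standard error (vertical axis) for the 181 tested members in their order along chromosome 19 (horizontal axis), coloured by the limma call. Shaded bands are the runs of 5 or more members by number; band 7, the array beside the centromere, holds the 3 lowest points and also 1 of the highest, ZNF493 at 1.5.

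**Figure D4:**
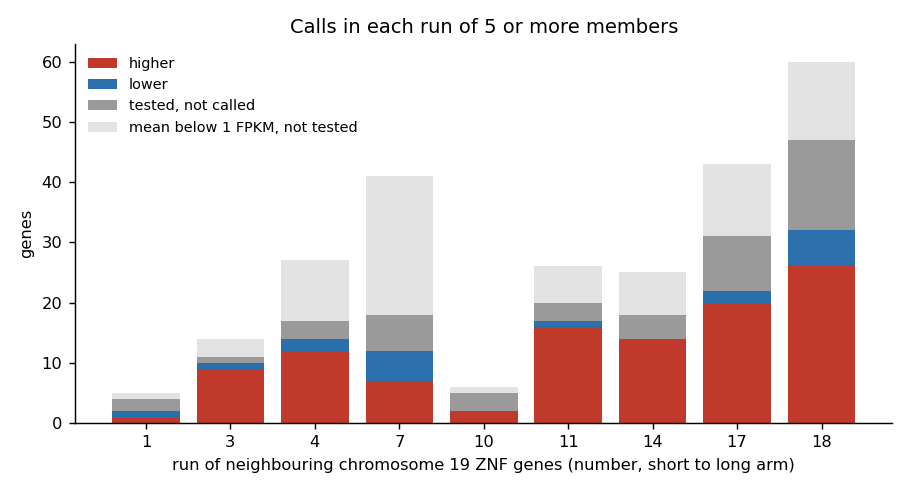
Number of members (vertical axis) in each of the 9 runs of 5 or more members (horizontal axis), divided into those called higher, called lower, tested without a call and not tested for a mean below 1 FPKM. Run 7 has the largest untested part, 23 of 41, and run 14 has 14 rises and no fall.

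Neighbours were only loosely alike. Over 165 pairs of adjacent tested members within a run, 114 pairs had changes of the same sign, where 135 of the 181 tested members had a positive change to begin with, and Pearson's r between the changes was 0.18 (Spearman's rho 0.16). These pairs share chromosome position and, in some cases, overlapping loci and similar sequence. On the side of the chromosome before the centromere 30 of 53 tested members rose (56.6%) and 10 fell (18.9%). On the other side 78 of 128 rose (60.9%) and 13 fell (10.2%), beside 37.0% and 35.4% of all tested genes.

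Of the 6 most abundant members 5 rose, ZNF121 and ZNF561 among them by 0.89 and 0.56, where 37.0% of all tested genes rose. ZNF146 (OZF), a protein made up almost wholly of fingers, was the highest at 37.2, 40.2 and 31.4 in the controls and 42.9, 46.1 and 41.7 after knockdown, a change of 0.27 ± 0.09 (limma adjusted p 0.024). Its groups lay close without overlapping, and the call was lost without knockdown replicate 1 or 2 (limma adjusted p 0.053 and 0.086). ZNF428 went from 22.6 ± 0.985 to 27.5 ± 2.67 and ZNF544 from 18.99 ± 1.31 to 25.5 ± 2.43 (SD, n = 3), and both were called. ZNF460 stood at 22.3, 25.1 and 22.2 against 21.3, 22.1 and 21.1 and did not pass (limma adjusted p 0.14).

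Of 15 members chosen for a described role, 13 were tested, 7 rose, 2 fell and 4 did not pass. These rises are 53.8% and falls 15.4% of those tested, beside 59.7% and 12.7% of all tested members and 37.0% and 35.4% of all tested genes. ZNF274, which brings SETDB1 to the 3′ ends of ZNF genes, stood at 14.7, 15.8 and 14.6 in the controls and 29.5, 28.3 and 28.0 after knockdown. All knockdown values lay well above the controls, a ratio of 1.90 and a change of 0.88 ± 0.05 (limma adjusted p 2.0e-06). ZNF649 rose from 3.34 ± 0.676 to 6.56 ± 0.195, and ZNF675, described as a regulator of TRAF6 signalling, from 2.95 ± 0.133 to 5.11 ± 0.468 (SD, n = 3). ZNF224, described as a repressor of aldolase A, rose from 7.12 ± 0.999 to 10.7 ± 0.921, and ZNF587, with 12.4% of its windows shared, from 13.9 ± 0.107 to 17.5 ± 0.273. ZNF91, known for repressing SVA elements and a close relative of ZNF93, did not pass, with 4.03, 5.43 and 3.30 against 4.40, 5.37 and 5.97 (change 0.26, limma adjusted p 0.17). The groups of ZNF91 overlapped, while ZNF93 fell as described above. ZNF43 fell from 2.49 ± 0.410 to 1.67 ± 0.106, a call lost without control replicate 2 or knockdown replicate 2 (limma adjusted p 0.054 and 0.051). ZNF331 and ZNF765 did not pass, and ZNF382 was below 0.14 FPKM in every library.

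Some members cannot be separated cleanly from neighbours by the deposited values. The listed locus of 185 members is shared with at least 1 other row of the table, and in 36 of the 258 members found in GENCODE at least 10% of the 100-base windows of the longest transcript occur in another gene. Leaving these 36 and the 3 without an entry out, 92 of 153 tested members rose and 20 fell, and among the 53 tested members with a locus of their own 28 rose and 5 fell. For 11 symbols the table holds 2 rows. ZNF417 is one of them: its higher row, 86.1% of whose windows are shared, went from 7.34, 5.74 and 4.95 to 3.95, 4.86 and 5.06, with overlapping groups, and its other row from 3.90, 3.97 and 3.99 to 5.50, 5.84 and 4.85. The rows thus moved in opposite directions, and their sum gave a change of 0.01 (limma adjusted p 0.91). ZNF788 showed an exchange between rows: 1 row was at 1.58 and 1.77 in controls 1 and 2 and at 0.00670 in control 3, while the other was at 0.0748, 0.121 and 2.09. In the knockdown libraries the first row was at 1.30, 0.00154 and 1.24 and the second at 0.288, 1.62 and 0.140. The sums of both rows were 1.65, 1.89 and 2.09 against 1.59, 1.63 and 1.38, so the level of this symbol is more even than either row shows.

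The proteins behind the members were compared through translated GENCODE transcripts, matched by identifier for 258 of 261. The median number of C2H2 finger matches was 12, and ZNF208 had the most, 36. A KRAB A box was found by pattern beside a finger in 205 of them (79.5%), against 108 of 285 (37.9%) of the ZNF genes on other chromosomes, whose median was 8 fingers. Genes without a match may still encode the box, as for ZNF224, a known KRAB protein. Among chromosome 19 members with the box, 90 of 147 tested rose (61.2%) and 18 fell, with a median change of 0.42, and among those without a match 16 of 32 rose and 5 fell, with a median of 0.21. On other chromosomes the values were 41 of 83 (49.4%) and 56 of 122 (45.9%). Of members with 15 or more fingers, 38 of 55 tested rose (69.1%) and 8 fell (14.5%). Of those with 10 to 14 fingers 41 of 75 rose (54.7%) and 8 fell (10.7%), and of those with fewer 27 of 49 rose (55.1%) and 7 fell (14.3%). Over all tested genes 37.0% rose and 35.4% fell. Rises were 82.6%, 83.7% and 79.4% of the calls in these 3 classes, so the direction of calls differed little between them. Across the 179 tested members with a count, the number of fingers and the change were weakly related, with Pearson's r of 0.12 and Spearman's rho of 0.11.

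The calls were also divided by the ZNF143 motif. Of 28 tested members holding it in this window, 18 rose (64.3%) and 3 fell (10.7%), with a median change of 0.35. Of 133 without it 79 rose (59.4%) and 18 fell (13.5%), with a median of 0.37. Over all tested genes 37.0% rose and 35.4% fell. The difference between members with and without the motif was not tested. In 23 of the 32 promoters its first base lay within 100 bases before the transcript start, and it read forward in 12 and in reverse in 20, as in the promoter of ZNF569. The other motifs were rarer. TTTGGCGC, a form of the E2F sequence, was in 9 member promoters (4.17%; 0.662% of all promoters), and the 5 tested ones rose, beside 92 of 156 tested members without it. TTTCCCGC, another E2F form, was in 4 (1.85%; 1.67% of all), of which 1 of 2 tested rose. CACGTG, the E-box of MYC-family and USF proteins, was in 9 (4.17%; 7.45% of all), of which 5 of 8 tested rose. All motifs were searched on both strands, and matches of different motifs overlapped in 0 of the 216 member promoters. The member promoters had a median GC content of 59.8% and 20 CpG dinucleotides, against 58.3% and 14 over all promoters.

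The silencing machinery that KRAB zinc finger proteins recruit gave both rises and falls, as all tested genes did. All 34 genes of the list were tested, and there were 13 rises, 15 falls and 6 genes without a call, around a median log2 change of -0.04. Rises were 38.2% and falls 44.1% of the list, beside 37.0% and 35.4% of all tested genes. TRIM28 (hg19 chromosome 19, 59055457 to 59062089), the corepressor that binds KRAB domains, stood at 145, 138 and 134 in the controls and 91.9, 85.4 and 89.8 after knockdown. All its knockdown values lay below the controls, a change of -0.64 ± 0.04 (limma adjusted p 5.3e-06). SETDB1, the methyltransferase, went the other way, from 19.7, 20.1 and 17.7 to 47.2, 43.1 and 41.8, a ratio of 2.30 and a change of 1.16 ± 0.07 (limma adjusted p 1.7e-06). It was the largest rise of the list.

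The HP1 genes diverged as well. CBX5 (HP1 alpha) fell from 48.0 ± 2.98 to 16.2 ± 0.115 (SD, n = 3), 2.97-fold, and CBX3 (HP1 gamma) fell by 0.52 on the log2 scale, whereas CBX1 (HP1 beta) rose from 24.4 to 41.1 FPKM. UHRF1, which recruits the maintenance DNA methyltransferase, fell from 23.4 ± 0.345 to 8.77 ± 0.260, and SUV39H1, a second H3 lysine 9 methyltransferase, from 16.0 ± 0.686 to 7.17 ± 0.438. DNMT1 fell by 0.45 on the log2 scale. Of the HUSH complex, which cooperates with SETDB1, MPHOSPH8 rose by 0.54 and PPHLN1 by 0.34, while FAM208A (TASOR) fell by 0.25, and the associated ATPase MORC2 rose by 0.38. ATRX and DAXX, which deposit histone H3.3 in heterochromatin, rose by 0.42 and 0.45.

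**Figure D5:**
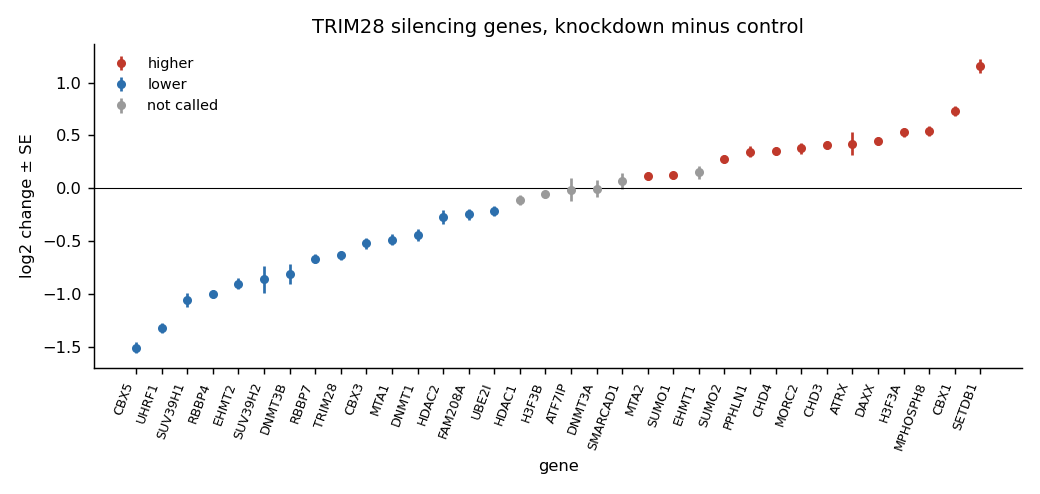
Log2 change of FPKM + 1 with its standard error (vertical axis) for the 34 genes of the TRIM28 silencing list (horizontal axis, ordered by change), coloured by the limma call. CBX5 at -1.51 and SETDB1 at 1.16 mark the ends, and TRIM28 lies at -0.64.

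A chosen list of chromosome 19 C2H2 genes with other names, not a full search, went mostly the same way as the members. Of 20 listed, 9 were tested and 8 rose, with ZSCAN22 not passing and no fall, beside 37.0% rises over all tested genes. ZFP14 rose by 1.42, and ZSCAN5A rose from 7.43 ± 0.519 to 16.0 ± 1.67 (SD, n = 3). HKR1 rose from 16.8 to 26.1 FPKM and MZF1, a myeloid zinc finger factor, from 7.26 to 9.43 FPKM. The other 11, PEG3 and ZIM3 among them, had a mean below 1 FPKM.

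On other chromosomes the largest called rises of ZNF genes were those of ZNF713, ZNF654, ZNF75D and ZNF37A. ZNF713 stood at 1.07, 1.12 and 1.21 against 5.71, 4.38 and 4.53, a ratio of 4.31, with 20.4% of its windows shared. The largest falls were those of ZNF207, ZNF252P, ZNF280C and ZNF511. ZNF207 (BUGZ), a spindle-associated protein that binds BUB3, stood at 88.02, 89.98 and 89.7 against 32.1, 28.8 and 29.4, the largest fall of any tested ZNF gene at -1.54 ± 0.05 (limma adjusted p 1.5e-07).

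The 80 members below a mean of 1 FPKM were not tested. Of these, 57 had a mean below 0.3 FPKM, and ZNF861P, ZNF729, ZNF209P and ZNF285B were listed at 0 in every library. Of the 76 not listed at 0, all knockdown values lay above all controls in 14 (18.4%) and below them in 9 (11.8%). Over all 14126 such genes of the table under 1 FPKM these shares were 10.7% and 7.84%, and the difference was not tested. ZNF540, whose product is a KRAB repressor, stood at 0.123, 0.285 and 0.268 against 1.18, 1.34 and 1.90 FPKM, the former all under 0.3 and the latter all over 1. Among the 181 tested members the groups were separate upward in 111 and downward in 26, where over all tested genes this held for 38.7% upward and 37.2% downward. All 131 called members were among them.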

How the data were processed

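The authors deposited 1 column of FPKM values per library, as the column names in the file headers say; FPKM count fragments relative to transcript length and library size. The submitters' processing notes name hg19, TopHat 1.4.1 and Cuffdiff 2.2.0 but not what each was used for. Per the labels' protocols, a stranded mRNA kit was used on 1 ug of RNA, and both ends were read for 100 bases. No source used here gives the annotation, the use of strand in counting, or how libraries were scaled to each other. Since FPKM are relative, large changes in abundant genes shift the others. The table's 1 blank row was left out.

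Genes reaching a mean of 1 FPKM were fitted as log2(FPKM + 1) with limma 3.58.1 in R 4.3.3 (empirical Bayes with a mean-variance trend, two-sided, no replicate block), adjusted by Benjamini-Hochberg over all 13343 tested genes, with a threshold of 0.05. Folds given as ratios are of mean FPKM. On simulated data for this comparison with 13343 genes the fit recovered 100%, 98%, 86% and 32% of genes changed by 2, 1, 0.5 and 0.25, with 5 false calls among 163. The changed genes were drawn only from levels above the median tested member. Far fewer genes were changed than in the data, where 72.4% were called. These shares therefore do not describe the weaker members.

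Members, gene lists and tests were chosen with earlier results of these data known. Named genes were the 10 largest called rises and falls with separate groups, the 6 most abundant members, the most abundant of each run of at least 5, the 15 with described roles, TRIM28, SETDB1 and the 4 largest changes of the silencing list, and the extremes of the other lists; further genes in the runs, repeated symbols, ZNF540 and the other list members quoted were chosen after their values were seen. GENCODE 29 transcripts were matched by Ensembl identifier and translated in 3 frames; fingers were C, 2 to 4 residues, C, 12 residues, H, 3 to 5 residues, H. A first KRAB pattern found 149 members, so a second one was added after seeing this. Promoters are RefSeq's, GRCh38.p14.

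Libraries of a group correlated with r of 0.986 to 0.988 over tested genes, while r between groups was 0.927 to 0.932.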

Additional observations from a re-analysis of the deposited data

How the results depend on the processing

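Among chromosome 19 members the count of rises lay between 98 and 114 and that of falls between 20 and 27 in all refits over the full list but the filter at 5 FPKM, which gave 63 and 10 because fewer genes were tested. Only members with a locus of their own gave 28 and 5, and ZNF genes of other chromosomes with one gave 27 and 14, again from fewer genes. Of the 131 reported calls, 0 turned to the opposite direction in any refit, and at least 117 held, or 73 at the filter of 5 FPKM, where 58 were not tested. The median change of the members was 0.445 with a pseudocount of 0.1, 0.143 without the filter, 0.321 at a filter of 0.3 FPKM, 0.434 at 5 FPKM, 0.400 with median scaling, 0.323 for members with a locus of their own and 0.419 for those with under 10% of windows shared, an alternative added after seeing the data. On other chromosomes it was 0.219 with a pseudocount of 0.1 and 0.078 without the filter. With 1 library left out, the counts ran from 98 to 103 rises and 20 to 24 falls, and the median from 0.343 to 0.397, lowest without knockdown replicate 1. The deviations of libraries 1, 2 and 3 from their group means correlated between groups at -0.03, -0.07 and 0.02, so the numbers were not taken to pair them; a replicate block gave 107 rises and 23 falls.

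ZCCHC24 ran from -2.39 to -2.32 with 1 library left out. Of 54 named genes that were fitted, all but ZNF146, ZNF43, ZNF91, ZNF331 and ZNF417 held direction and side of the threshold in the refits that tested them. ZNF146 was lost without the filter (adjusted p 0.074) and without knockdown replicate 1 or 2 (0.053 and 0.086), and ZNF43 without the filter (0.052), control replicate 2 (0.054) or knockdown replicate 2 (0.051). ZNF91 passed without control replicate 2 (0.029) and ZNF417 without control replicate 3 (0.030). ZNF331, not called, turned to -0.022, -0.007 and -0.072 without control 1, control 3 and knockdown 2 (0.066 at most without 1 library), and ZNF417 to 0.011 with its rows summed. The causes were not tested. Absolute depth is unknown, so no limit can be given for genes listed at 0. Count tests were not run, since the table holds no counts.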
